A study of Homo sapiens with 54 samples.

Results

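Complex I (NADH:ubiquinone oxidoreductase) is the first enzyme of the mitochondrial respiratory chain. It passes electrons from NADH through a flavin and a chain of iron-sulfur clusters to ubiquinone in a matrix arm, and pumps protons through a membrane arm. Its core subunits carry out the catalysis, while a larger number of accessory subunits, most of them small proteins, surround the core and are needed for assembly and stability. The genes described here are the nuclear genes of these subunits, chosen by symbol: NDUFA, NDUFB, NDUFC, NDUFS, NDUFV or NDUFAB followed by a number, with assembly factors (NDUFAF) left out. This rule took 38 genes of 38137 listed and of the 15464 that the authors kept, and all 38 were tested. They comprised 7 core subunits, 9 accessory subunits of the matrix arm, 20 accessory subunits of the membrane arm, NDUFAB1, the mitochondrial acyl carrier protein, and NDUFA4, which carries a complex I name but is a subunit of complex IV. Subunits encoded by mitochondrial DNA were not analysed here.

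RNA was sequenced from HEK293T cells, a human embryonic kidney line, in 54 libraries that formed 18 groups of 3 independent biological replicates. Cells were transiently transfected with a plasmid that carried RfxCas13d, an RNA-guided nuclease that cleaves RNA, behind the CAG promoter and its guide (crRNA) behind the U6 promoter. The effector was N2V8 or N2V7, high-fidelity variants with mutations in a HEPN domain that were made to lessen cleavage of bystander RNA, or the unmodified enzyme (WT). Each came with crRNA-13 against C9ORF72 (S13), with crRNA S3, S4 or S7, whose targets the labels do not give, or with a non-targeting crRNA (NTG). The paper lists numbered crRNAs against C9ORF72 and does not say whether S3, S4 and S7 are among them. Groups are written as effector and crRNA, for example N2V8_S13. Other cells received the antisense oligonucleotide ASO2 or ASO4, and untransfected cells (UT) received neither. The labels place harvest at 48 h, and the study's account of its results names a later one. The methods describe no sorting of transfected HEK293T cells, and no group in the set received a plasmid without an effector. Effector, crRNA, plasmid and transfection therefore cannot be told apart in NTG against UT.

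Library totals ran from 9546773 to 15099225 estimated counts. Of 16 kidney lineage markers 7 passed the expression filter, and so did 6 of 10 markers of other lineages. Among the kidney lineage markers, PAX2, SIX2, WT1, LHX1 and LRP2 averaged 5.86, 19.3, 10.9, 7.38 and 19.0 CPM (counts scaled to library size). PAX8, AQP1 and CUBN averaged 0.05, 0.33 and 0.32 CPM, and UMOD and AQP2 were listed at 0 in all 54 libraries. VIM, NEFM and NEFL averaged 989, 224 and 117 CPM. C9orf72 in ASO4 was lower than in UT (log2 change −1.40, adjusted p = 2.17e-16), and its total did not pass the test with S13 (N2V8 −0.06, N2V7 0.07, WT −0.15). In the paper, ASO4 targets all main transcript variants, while crRNA-13 was meant to spare V2, the predominant one. With crRNA-13 and WT, its qPCR found variant V3 lowered and the pool of all variants unaffected. Replicate 2 of N2V7_S4 stood apart from the other libraries, with a residual SD of 2.32, and held 63.4% of the squared weight of the factor of unwanted variation. In bulk RNA such as this, fewer cells of a type and less RNA per cell cannot be told apart.

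Promoter sequence is given for some of the genes of the set that are named in the results below. RefSeq promoters (GRCh38.p14, 250 bases before to 50 after each start) were found for 33 of the 38 genes. The first set shows 110 bases upstream of the start of 3 genes that were called in many comparisons and of NDUFS3, a core subunit that was called in N2V7_S13. Capitals mark the NRF1 motif in NDUFA3 and the ETS motif, on either strand, in NDUFS3.
NDUFB2: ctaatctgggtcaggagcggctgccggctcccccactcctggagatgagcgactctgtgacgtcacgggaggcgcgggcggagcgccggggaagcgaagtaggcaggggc
NDUFB3: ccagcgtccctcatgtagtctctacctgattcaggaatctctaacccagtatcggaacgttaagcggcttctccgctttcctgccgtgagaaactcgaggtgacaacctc
NDUFA3: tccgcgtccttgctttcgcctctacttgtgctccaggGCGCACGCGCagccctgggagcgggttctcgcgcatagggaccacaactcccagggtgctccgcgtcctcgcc
NDUFS3: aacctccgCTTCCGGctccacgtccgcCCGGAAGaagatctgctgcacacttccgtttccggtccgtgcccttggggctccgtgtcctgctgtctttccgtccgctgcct
These stretches lie at chr7:140696598-140696707 (NDUFB2), chr2:201071891-201072000 (NDUFB3), chr19:54102745-54102854 (NDUFA3) and chr11:47578964-47579073 (NDUFS3), all on the plus strand, and each ends at the base before the annotated start.

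Downstream of the start, a feature that the choice of genes did not use recurred. The YY1 motif ATGGCGG (either strand) was present in 14 of 33 member promoters (42.4%), against 5.62% of 27305 promoters of all genes. In 11 of them it lay after the start (33.3% of the member promoters, against 2.81% of all promoters), on the transcribed strand in 9. The promoters of all genes include those of genes not expressed in these cells, and shares among the tested genes alone were not computed. The motif begins with ATG, so a match after the start may be the beginning of a coding sequence, which was not examined. The second set shows 30 bases around this motif, in capitals, for 5 genes with the motif on the transcribed strand and for NDUFV3, where it is on the other strand. NDUFB8 rose in many comparisons, NDUFS3 rose with N2V7_S13, and NDUFV3 was called lower in WT_S7.
NDUFB8: agaaggtgaagATGGCGGtggccagggccg
NDUFS3: atctgagtaacATGGCGGcggcggcggtag
NDUFS6: agcggcgcaaaATGGCGGcggcgatgacct
NDUFS7: ccgaggccaagATGGCGGtgctgtcaggtg
NDUFA6: gctttggcaagATGGCGGggagcggcgtcc
NDUFV3: gcccgctgtcaCCGCCATggctgccccgtg
They lie at chr10:100529833-100529862 (minus strand), chr11:47579081-47579110, chr5:1801407-1801436, chr19:1383916-1383945, chr22:42090726-42090755 (minus strand) and chr21:42893318-42893347, in the order shown. The NRF1 motif (GCGCA, then any base, then GCGC) was found in 6 of 33 (18.2%, against 5.90% of all promoters) and the ETS motif CCGGAAG in 4 (12.1%, against 10.5%). The 3 motifs were searched on both strands and share no overlapping letters in the stretches shown. In 12 of 33 none was present, NDUFB2, NDUFB3 and NDUFB6 among them. A match describes letters in the window and not binding of a factor.

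Across the 54 libraries the members were expressed at clearly measurable levels. NDUFS1, the largest iron-sulfur subunit of the core, averaged 174 CPM. Per kilobase of canonical transcript, the highest levels were those of NDUFA1 (386 CPM per kb) and NDUFS5 (308 CPM per kb), both small accessory subunits of the membrane arm, and the lowest that of NDUFV3 (8.67 CPM per kb), an accessory subunit of the NADH-binding module. The level per kilobase depends on the canonical length, 5725 nt for NDUFV3, and which isoform these cells use was not analysed here. Group means spread least for NDUFA10 and NDUFS1, covering 0.27 and 0.28 on the log2 scale. NDUFB2 was called in the most comparisons, higher in 8 and lower in 4 of the 23 run, followed by NDUFB1 (8 higher, 3 lower), NDUFB3 (7 higher, 4 lower) and NDUFB8 (8 higher, 2 lower). NDUFA7, NDUFA13, NDUFB11, NDUFS1 and NDUFS8 were called in none. Several comparisons share control libraries, so these counts are not independent.

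**Figure D1:**
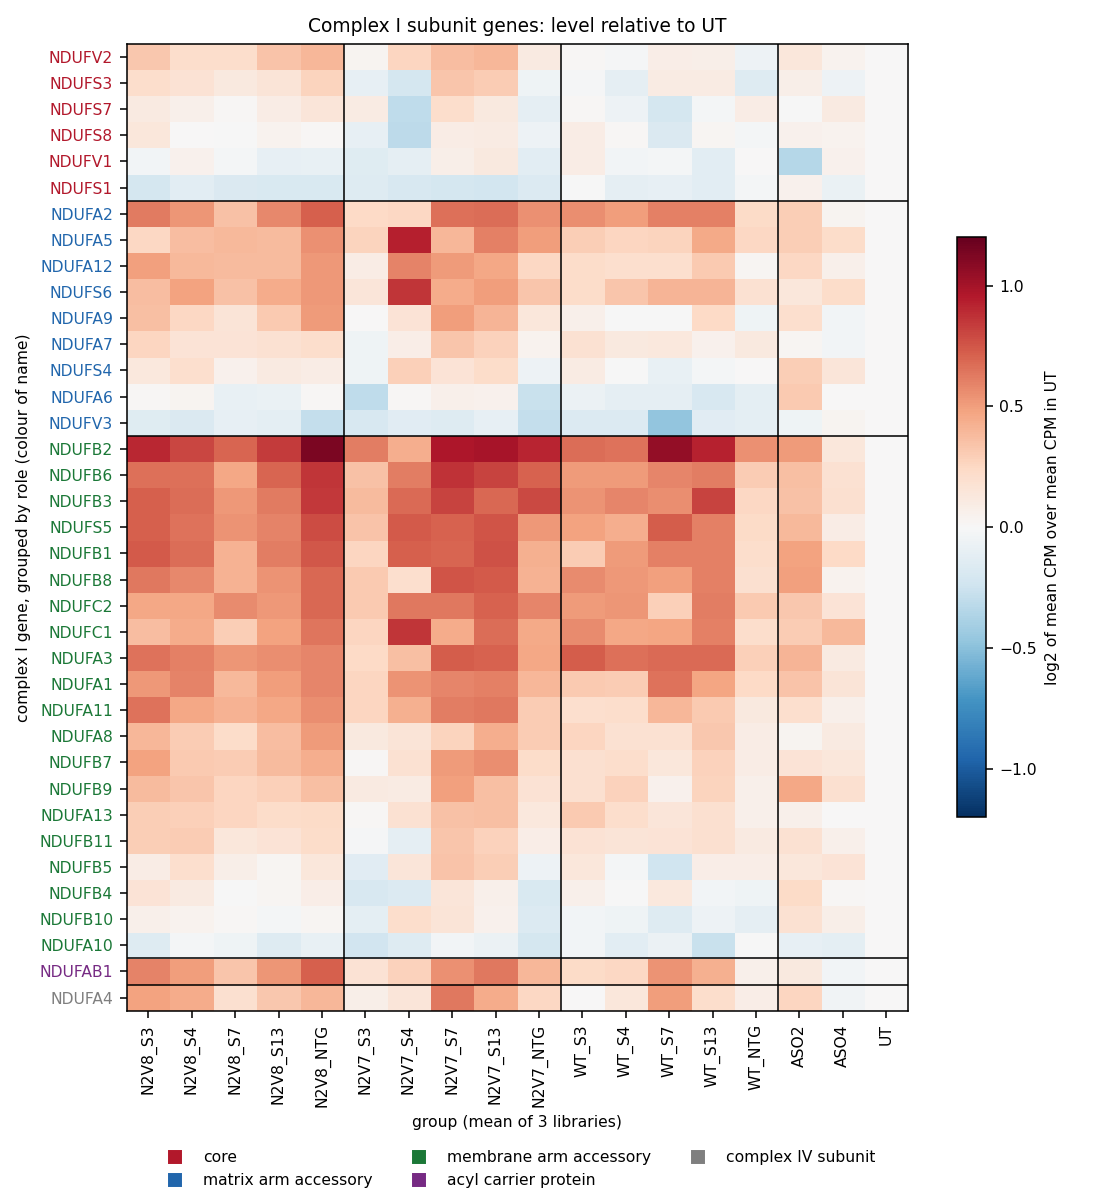
Level of each of 37 of the genes (rows, coloured by role) in each of the 18 groups (columns), as log2 of the group's mean CPM over the mean CPM in UT (red higher, blue lower, UT at 0). The membrane arm row of NDUFB2 is darkest, at 1.13 in N2V8_NTG by the fitted change, while most core rows stay near 0.

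The first comparison set each effector with the non-targeting crRNA against untransfected cells. Many accessory subunits rose with the high-fidelity variants, though not all, and among the core subunits NDUFV2 in N2V8_NTG was the sole one called. In N2V8_NTG 22 of the 38 genes were higher than in UT and 0 were lower, by edgeR's quasi-likelihood test at a log2 change past 0.32 in either direction and a Benjamini-Hochberg adjusted p under 0.05. Over all 15378 genes tested, 15.3% were called higher in that comparison. The median log2 change of the members was 0.42, beside 0.00 for all genes. In N2V7_NTG 14 were higher and 0 lower (10.9% of all genes higher, median of the members 0.20), and in WT_NTG 1 was higher and 0 lower (2.71% of all genes higher, median 0.08).

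NDUFB2, a small subunit of the membrane arm, moved furthest. It was at 38.2, 45.0 and 42.1 CPM in N2V8_NTG, at 32.0, 38.7 and 37.4 CPM in N2V7_NTG and at 26.5, 28.8 and 28.6 CPM in WT_NTG, against 21.2, 17.7 and 18.4 CPM in UT. No library of any NTG group overlapped those of UT. Over all genes tested, every library lay above all of UT for 25.9% in N2V8_NTG, 22.0% in N2V7_NTG and 12.4% in WT_NTG. The log2 change was 1.13 ± 0.11 (SE, 2.19-fold, adjusted p = 2.25e-12) in N2V8_NTG, 0.92 ± 0.11 (1.21e-09) in N2V7_NTG and 0.55 ± 0.11 (6.77e-05) in WT_NTG, and NDUFB2 was the sole member called in WT_NTG. That count rose to 4 without replicate 3 of UT, 3 without replicate 3 of WT_NTG, and 2 without replicate 1 of UT or replicate 2 of WT_NTG.

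NDUFB6, which lies in the membrane arm as well, was at 58.6, 60.3 and 62.5 CPM in N2V8_NTG and at 49.2, 58.8 and 55.4 CPM in N2V7_NTG, against 33.5, 32.2 and 34.6 CPM in UT. All libraries of both variants lay above all of UT, with log2 changes of 0.86 ± 0.09 (adjusted p = 3.73e-11) and 0.70 ± 0.09 (9.06e-09). NDUFB3 was at 59.3, 57.3 and 59.2 CPM in N2V8_NTG and at 52.4, 64.4 and 52.2 CPM in N2V7_NTG, against 34.9, 33.2 and 29.6 CPM in UT. Its changes were 0.85 ± 0.10 (1.06e-09) and 0.79 ± 0.10 (6.56e-09), again with no overlap.

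NDUFS5, a membrane arm subunit that faces the intermembrane space, was at 176.5, 185.8 and 182.6 CPM in N2V8_NTG, against 114.1, 100.6 and 101.6 CPM in UT. The groups were far apart for their spread (log2 change 0.78 ± 0.06, adjusted p = 2.16e-16). NDUFB1 was at 42.5, 36.2 and 43.6 CPM in N2V8_NTG, against 27.1, 21.6 and 24.2 CPM in UT, and its libraries varied more (0.75 ± 0.11, 2.38e-07). NDUFAB1, which carries an acyl chain that LYR-motif subunits bind, and NDUFA2, a matrix arm subunit with a thioredoxin-like fold, both changed by 0.72 in N2V8_NTG. NDUFB8 and NDUFC2 changed by 0.69 and NDUFC1 by 0.65. NDUFC2 overlaps the readthrough gene NDUFC2-KCTD14 on the same strand, so its reads could be shared. NDUFB2 (ADCK2), NDUFC1 (MGARP), NDUFS3 (PTPMT1), NDUFB8 and several other members also overlap an annotated gene on their strand. Whether reads were shared was not examined. The remaining 12 members called in N2V8_NTG had log2 changes of 0.36 to 0.59.

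In N2V7_NTG the next members were NDUFC2, at 91.2, 94.2 and 93.8 CPM against 62.6, 60.4 and 63.4 CPM in UT (0.58 ± 0.06, adjusted p = 1.07e-12), and NDUFA2, at 34.7, 37.8 and 36.4 CPM against 26.5, 22.0 and 26.0 CPM in UT (0.55 ± 0.08). Both sets of libraries were separate. NDUFS5, NDUFA5, NDUFA3, NDUFC1 and NDUFB1 followed, with changes of 0.52, 0.50, 0.47, 0.46 and 0.42.

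By role, 14 of 20 membrane arm accessory subunits rose in N2V8_NTG (median log2 change 0.57), 5 of 9 matrix arm accessory subunits (median 0.52) and 1 of 7 core subunits (median 0.02). The core subunit was NDUFV2, a 2Fe-2S protein of the NADH-binding module, with a change of 0.40. In N2V7_NTG the counts were 10 of 20, 3 of 9 and 0 of 7. The core subunit NDUFS1 had a log2 change of −0.18 in N2V8_NTG (adjusted p = 0.00212) and −0.17 in N2V7_NTG (0.00441), short of the fold required, and every library of both lay below UT. NDUFV3 was likewise below UT without reaching the fold, at −0.29 in N2V8_NTG (0.00106) and −0.28 in N2V7_NTG (0.00126). Over all genes tested, every library lay below UT for 25.2% in N2V8_NTG and 22.3% in N2V7_NTG. Whether roles differ from each other was not tested.

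**Figure D2:**
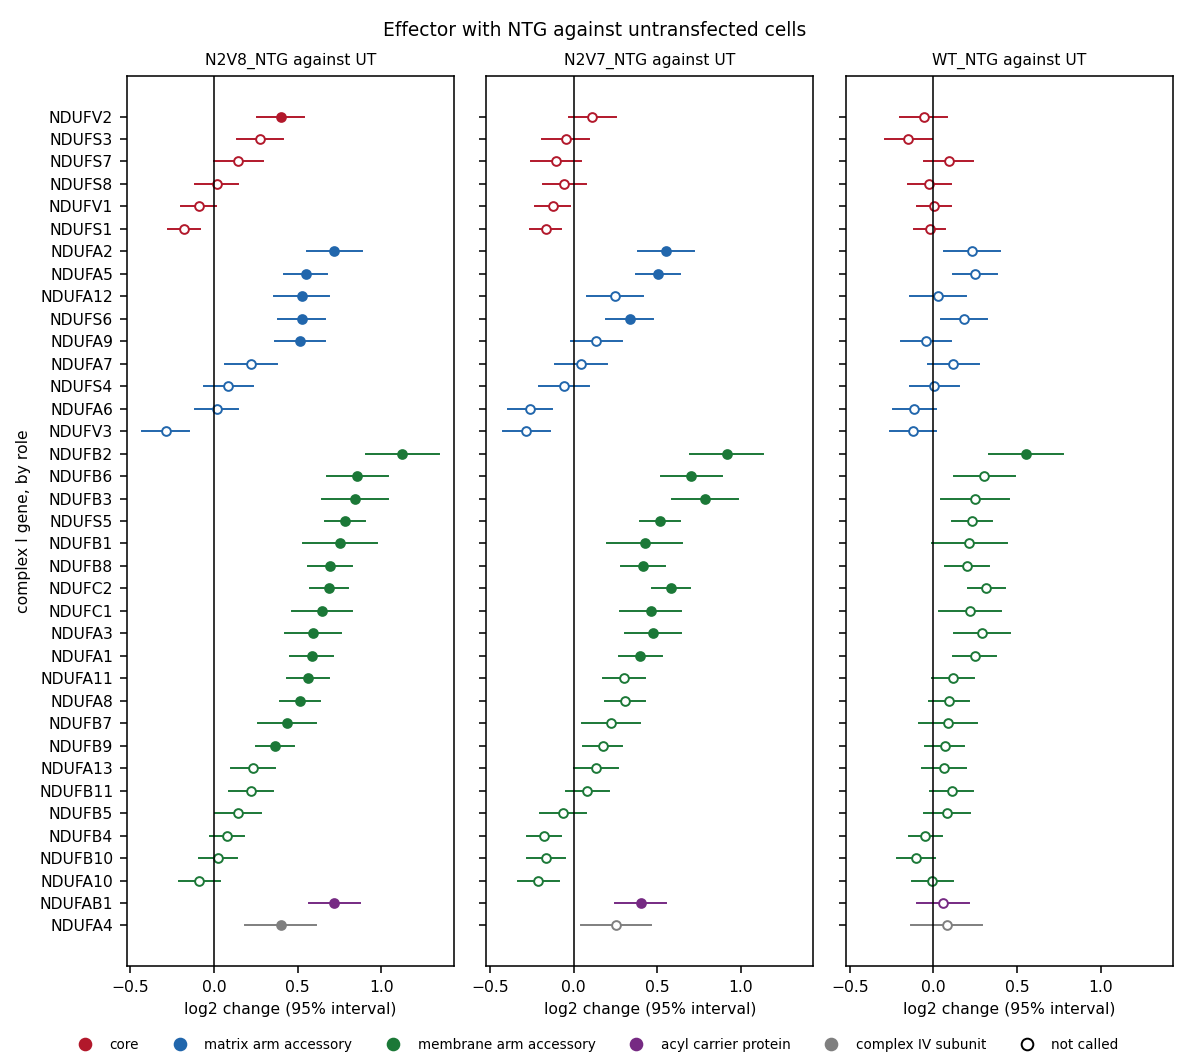
Log2 change with 95% interval (x axis) of each of 37 of the genes (y axis, ordered and coloured by role) in N2V8_NTG, N2V7_NTG and WT_NTG, each against UT (3 libraries a group), with filled points for called genes. There are 22, 14 and 1 filled points in the panels from left to right, nearly all of them accessory subunits.

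Set against WT_NTG directly, a comparison that was added after seeing the data, N2V8_NTG held 19 members higher and 0 lower (12.0% of all genes higher, median of the members 0.33). NDUFAB1 led with a log2 change of 0.66 (adjusted p = 7.18e-10), followed by NDUFB3 at 0.60, NDUFB2 at 0.57 and NDUFA9, a subunit beside the quinone site, at 0.56. N2V7_NTG against WT_NTG had 4 higher (5.51% of all genes), NDUFB3 at 0.54, NDUFB6 at 0.40, NDUFB2 at 0.36 and NDUFAB1 at 0.34. N2V8_NTG against N2V7_NTG had 2 higher (1.87% of all genes), NDUFA9 at 0.38 and NDUFB1 at 0.33. Without replicate 2 of N2V7_NTG the count against WT_NTG was 2. The last count was 1 without replicate 1 of N2V7_NTG, 5 without replicate 2 of N2V7_NTG and 4 without replicate 2 of N2V8_NTG.

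The second comparison asked what crRNA-13 did to these genes within each effector. In WT_S13 9 of 38 were higher than in WT_NTG and 0 were lower (6.53% of all genes called higher, median log2 change of the members 0.20). In N2V7_S13 6 were higher than in N2V7_NTG and 0 lower (3.66% of all genes higher, median 0.22). In N2V8_S13 0 of 38 were called, against 2.44% of all genes in either direction. There the median was −0.08, 10 members had an unadjusted p under 0.05, and 0 were called by limma-trend or DESeq2 as well. Positive changes were seen for 29, 35 and 3 of the 38 members in WT_S13, N2V7_S13 and N2V8_S13. The median change of all genes was 0.003, 0.015 and 0.005 in the same order. Genes outside the set with canonical transcripts of 500 to under 1000 nt had medians of 0.13, 0.18 and −0.06. The share of all genes with a positive change, or with an unadjusted p under 0.05, was not computed.

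NDUFB3, one of the small membrane arm subunits, was at 62.0, 53.7 and 55.2 CPM in WT_S13, against 38.1, 37.2 and 40.9 CPM in WT_NTG. The groups did not overlap (log2 change 0.56 ± 0.09, adjusted p = 1.68e-05). NDUFB8 was at 122.5, 116.5 and 112.5 CPM in WT_S13, against 90.2, 90.0 and 84.6 CPM in WT_NTG (0.41 ± 0.06, 2.56e-06). NDUFA3 was at 39.9, 41.6 and 39.4 CPM, against 30.5, 32.7 and 28.4 CPM in WT_NTG (0.40 ± 0.08, 0.000147). For both, every WT_S13 library lay above every WT_NTG library.

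NDUFC1, at 38.2, 38.4 and 34.5 CPM in WT_S13 against 30.1, 25.2 and 29.2 CPM in WT_NTG, changed by 0.39 ± 0.09 (adjusted p = 0.000592), and lost its call without replicate 2 of WT_NTG (log2 change 0.32). NDUFB1 was at 39.2, 33.1 and 38.4 CPM in WT_S13, against 28.7, 25.8 and 29.8 CPM in WT_NTG (0.39 ± 0.11, 0.00543). Groups of both genes were separate, although the gap for NDUFB1 was small. NDUFA2, NDUFS5, NDUFB2 and NDUFAB1 changed by 0.37 each. NDUFA10, a membrane arm subunit related to nucleoside kinases, went the other way, with −0.26 (adjusted p = 0.00135) and without overlap, short of the level required for a call. Of all genes tested, 19.2% had every WT_S13 library below every WT_NTG library. None of the 7 core subunits was called in WT_S13, and their median was −0.04, beside 0.20 for the matrix arm and 0.23 for the membrane arm accessory subunits.

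In N2V7_S13 NDUFB5, a membrane arm subunit, was at 102.8, 117.9 and 122.6 CPM, against 92.7, 92.0 and 83.2 CPM in N2V7_NTG (log2 change 0.36 ± 0.07, adjusted p = 8.8e-05). The core subunit NDUFS3 was at 74.7, 77.7 and 72.9 CPM in N2V7_S13, against 57.3, 58.7 and 60.3 CPM in N2V7_NTG (0.35 ± 0.07, 0.000121), with a gap wider than the spread within either group. NDUFB1 was at 40.5, 42.9 and 40.6 CPM in N2V7_S13, against 29.1, 37.6 and 31.1 CPM in N2V7_NTG, where replicate 2 lay near the S13 libraries (0.35 ± 0.10, 0.0147).

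NDUFB7, a subunit on the intermembrane side, was at 36.9, 32.0 and 33.5 CPM in N2V7_S13, against 26.2, 26.2 and 28.4 CPM in N2V7_NTG (0.34 ± 0.08, adjusted p = 0.00166). NDUFA11, a membrane protein of the arm's junction, was at 84.2, 89.5 and 88.3 CPM, against 65.5, 71.8 and 70.9 CPM in N2V7_NTG (0.33 ± 0.06, 4.21e-05). NDUFB8 changed by 0.32 ± 0.06 (0.00013). All groups were separate. Of all genes tested, 19.6% had every N2V7_S13 library above every N2V7_NTG library. These calls sat close to the fold required: the count was 3 without replicate 1 or replicate 3 of N2V7_NTG, and of the 6 NDUFS3 alone kept its call each time 1 library was left out. Medians by role were nearly equal, 0.22 each for the core, the matrix arm and the membrane arm subunits.

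In N2V8_S13 the lowest value was that of NDUFB2, at −0.29 (95% interval −0.49 to −0.09, adjusted p = 0.0362), the fold just short of a call. Every library of it lay below N2V8_NTG, as was the case for 12.9% of all genes tested. NDUFB3 had −0.22 (−0.41 to −0.04, 0.0905) and NDUFS5 −0.19 (−0.31 to −0.08, 0.013). NDUFV3 had the highest value, 0.17 (0.095). Without replicate 1 of N2V8_NTG 1 member was called lower.

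**Figure D3:**
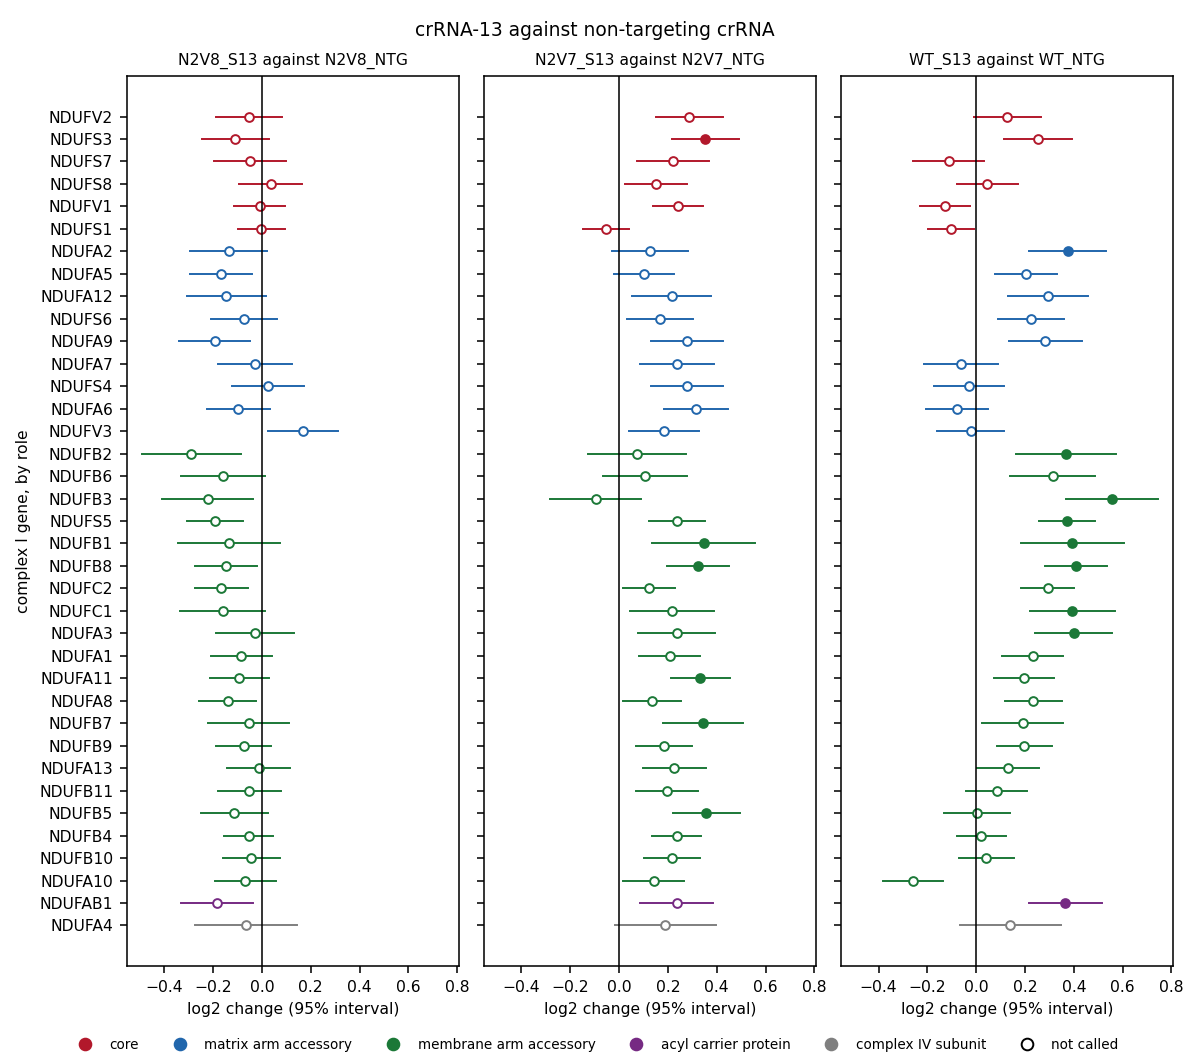
Log2 change with 95% interval (x axis) of each of 37 of the genes (y axis, ordered and coloured by role) with crRNA-13 against the non-targeting crRNA of the same effector (3 libraries a group), for N2V8, N2V7 and WT, with filled points for called genes. Filled points number 0, 6 and 9 from left to right, and most N2V8 points sit left of 0.

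For some members the effect of crRNA-13 differed between effectors when the difference itself was fitted. For N2V8 minus WT, 16 members were lower and 0 higher (9.72% of all genes called lower, median −0.28). NDUFB3 had the largest difference, −0.78 ± 0.13 (adjusted p = 1.91e-05), followed by NDUFB2 at −0.66, NDUFS5 at −0.56 (6.93e-07) and NDUFB8 at −0.56. Of these 16, 10 belonged to the membrane arm, 4 to the matrix arm and 1 to the core, beside NDUFAB1. For N2V8 minus N2V7, 13 were lower and 0 higher (5.37% of all genes lower, median −0.27), led by NDUFB1 at −0.48 and NDUFA9, NDUFB5 and NDUFB8 at −0.47. For N2V7 minus WT, 5 were higher and 1 lower (6.26% and 8.64% of all genes), and the direction was mixed: NDUFB3 at −0.65 ± 0.13 (0.000244), against NDUFA10 at 0.40, NDUFA6 at 0.39, NDUFV1, the flavin-binding core subunit, at 0.37, NDUFB5 at 0.36 and NDUFS7 at 0.33. NDUFS7 and NDUFB5 lost their call when single libraries were left out.

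These differences rest on the level in NTG as well as on that in S13. NDUFB2 averaged 34.0 ± 1.26 CPM in N2V8_S13, 37.8 ± 1.46 CPM in N2V7_S13 and 36.1 ± 0.96 CPM in WT_S13, against 41.7 ± 3.41, 36.0 ± 3.51 and 28.0 ± 1.33 CPM in the NTG groups of the same effectors (SD, n = 3 each). The S13 groups thus spanned a narrower range than the NTG groups did. The summed share of all 38 genes in the counts showed the same order, with 0.304 to 0.324% in N2V8_S13, 0.331 to 0.341% in N2V7_S13 and 0.316 to 0.321% in WT_S13, against 0.332 to 0.334% in N2V8_NTG, 0.297 to 0.314% in N2V7_NTG and 0.286 to 0.289% in WT_NTG. In UT it was 0.254 to 0.277%, below every library named here.

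**Figure D4:**
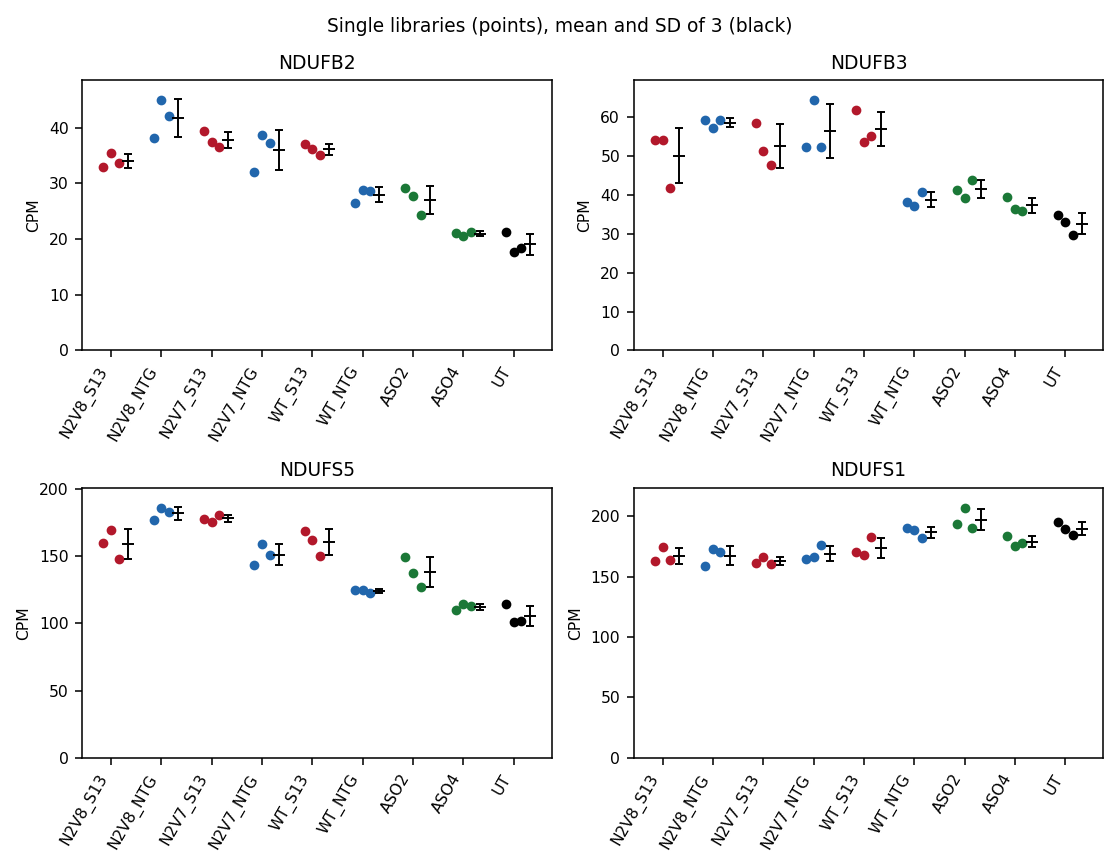
CPM (y axis, from 0) of NDUFB2, NDUFB3, NDUFS5 and NDUFS1 in single libraries (points) of 9 groups (x axis), with the mean and SD of 3 in black. NDUFB2 is highest in N2V8_NTG (41.7 CPM) and lowest in UT (19.1 CPM), while the NDUFS1 groups lie within a narrow band.

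The antisense oligonucleotides were given without a Cas13 effector. In ASO2 10 members were higher than in UT and 1 was lower (7.07% and 9.01% of all genes, median of the members 0.20), and in ASO4 1 was higher and 0 lower (0.917% of all genes higher, median 0.06). All 10 that rose in ASO2 belonged to the membrane arm. NDUFB2 was at 29.2, 27.8 and 24.3 CPM in ASO2, against 21.2, 17.7 and 18.4 CPM in UT (log2 change 0.51 ± 0.11, adjusted p = 0.000509). NDUFB8 was at 109.9, 110.6 and 104.6 CPM, against 77.4, 72.6 and 81.0 CPM in UT (0.50 ± 0.07, 3.12e-08). The ASO2 libraries of both were above all UT libraries, as was the case for 20.1% of all genes tested.

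NDUFB9, an LYR-motif subunit that binds NDUFAB1, was at 123.0, 123.9 and 131.7 CPM in ASO2, against 100.5, 86.6 and 87.7 CPM in UT (0.46 ± 0.06, adjusted p = 5.5e-09). NDUFV1 fell, with 102.9, 95.0 and 105.9 CPM in ASO2 against 137.6, 122.5 and 123.7 CPM in UT (−0.34 ± 0.05, 1.57e-06). It was the one core subunit called, and lost the call without replicate 1 of UT or replicate 2 of ASO2 (−0.28 and −0.29). In ASO4 the member called was NDUFC1, at 28.7, 33.8 and 32.8 CPM against 23.1, 22.8 and 26.9 CPM in UT (0.39 ± 0.09, 0.00111).

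The 3 other crRNAs were set against NTG of the same effector as well. With WT, members higher than in WT_NTG numbered 4 in WT_S3 (2.09% of all genes), 2 in WT_S4 (2.01%) and 8 in WT_S7 (9.36%), and 1 was lower in WT_S7 (9.83%). NDUFA3, a membrane arm subunit, was called in all 3, with log2 changes of 0.44, 0.38 and 0.39. NDUFB8 at 0.37 followed in WT_S3, NDUFB3 at 0.34 in WT_S4, and NDUFS5 at 0.50, NDUFB2 at 0.49 and NDUFAB1 at 0.48 in WT_S7, where NDUFV3 fell by 0.36 on the log2 scale. The count for WT_S3 was 2 without replicate 2 of WT_NTG, and that for WT_S4 was 1 without replicate 2 of WT_S4.

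With N2V7, 0 were higher and 2 lower in N2V7_S3 than in N2V7_NTG (1.02% of all genes lower), NDUFB3 at −0.41 and NDUFB6 at −0.35. In N2V7_S7 7 were higher and 0 lower (5.38% of all genes higher), led by NDUFB5 at 0.41, NDUFS3 at 0.38, NDUFA4 at 0.38 and NDUFA9 at 0.37. In N2V7_S4 5 were higher and 2 lower (9.65% and 14.5% of all genes), NDUFS6 at 0.47 and NDUFB2 at −0.53 among them. Without replicate 2 of N2V7_S4 0 were called, without replicate 3 of N2V7_S4 17, and without replicate 1 of N2V7_S4 or replicate 2 of N2V7_NTG 11, so N2V7_S4 gives no firm value. For N2V7_S3 the count was 4 without replicate 1 of N2V7_NTG and 0 without replicate 2. For N2V7_S7 it was 4 without replicate 1 of N2V7_NTG, 13 without replicate 2 and 12 without replicate 3.

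With N2V8, members lower than in N2V8_NTG numbered 1 in N2V8_S4 (3.21% of all genes), NDUFB2 at −0.32, and 8 in N2V8_S7 (3.47%), led by NDUFB2 at −0.42, NDUFAB1 at −0.39, NDUFB6 at −0.38 and NDUFA2 and NDUFA9 at −0.35, and 0 were higher in either. In N2V8_S3 0 were called in either direction by edgeR (3.07% of all genes), with 8 at an unadjusted p under 0.05. The share of all genes at that unadjusted level was not computed. The count for N2V8_S7 was 3 without replicate 3 of N2V8_NTG and 2 without replicate 1 of N2V8_S7. The one for N2V8_S4 was 2 without replicate 1 of N2V8_NTG and 0 without replicate 2 or 3 of either group. In N2V8_S3 1 was called without replicate 2 of N2V8_NTG and 2 without replicate 1 of N2V8_S3. All N2V8 comparisons use the same N2V8_NTG libraries.

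Genes of the other respiratory complexes and of complex I assembly were given from lists chosen by function. In N2V8_NTG against UT, 11 of 19 assembly factors were higher and 1 lower (median log2 change 0.36), with NDUFAF5, which hydroxylates a core subunit, at 1.29 and TMEM126B, a factor of membrane arm assembly, at 1.04. Of complex II, III and IV subunits and of ATP synthase subunits, 3 of 4, 5 of 9, 7 of 10 and 9 of 15 were higher and 0 lower, among them SDHC at 0.48, UQCR10 at 0.56, COX7B at 0.80 and ATP5MC1 at 1.21. Of 12 regulators of mitochondrial biogenesis 2 were higher and 1 lower (median 0.02), the nuclear receptor ESRRA at 0.65 and the coactivator PPRC1 at −0.68. Over all 15378 genes, 2348 were higher and 2256 lower in that comparison, so the regulators' counts lie near the background.

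In WT_S13 against WT_NTG, 8 of 19 assembly factors were higher, with TMEM126B at 0.60 and NDUFAF5 at 0.51, while 0 of 4, 1 of 9, 1 of 10 and 2 of 15 subunits of complexes II, III, IV and ATP synthase were, COX7B at 0.56 and ATP5MC1 at 0.52 among them. None of these lists had a lower member there, and 6.53% of all genes were called higher. In N2V7_S13 2 of 19 assembly factors were higher, ECSIT at 0.52 and NDUFAF6 at 0.40, as were 0 of 4, 3 of 9, 1 of 10 and 1 of 15 subunits of complexes II, III, IV and ATP synthase, UQCRFS1 at 0.40, UQCRQ at 0.38 and COX4I1 at 0.34 among them, and 2 of 12 biogenesis regulators were lower, PPARGC1B at −0.58 and PPRC1 at −0.44. Over all genes, 3.66% were called higher and 1196 of 15378 lower in N2V7_S13. In N2V8_S13 the sole call in these lists was ATP5MC1, at −0.33, beside 2.44% of all genes called in either direction. For N2V8 minus WT in the S13 effect 10 of 19 assembly factors were lower, TMEM126B at −0.90, and so were 3 of 4, 1 of 9, 5 of 10 and 8 of 15 subunits of complexes II, III, IV and ATP synthase. Of all genes, 9.72% were called lower in that difference.

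Most complex I transcripts are short, and transcript length moved with the results. In N2V8_NTG against UT the median log2 change of genes outside the set was 0.19 for canonical transcripts under 500 nt, 0.25 for 500 to under 1000 nt, 0.13 for 1000 to under 2000 nt, 0.04 for 2000 to under 4000 nt and −0.12 for 4000 nt and over. Members in the same classes had medians of 0.78 (5 genes), 0.40 (21 genes), −0.01 (4 genes), 0.54 (2 genes) and 0.03 (6 genes). In WT_S13 against WT_NTG the medians of other genes were 0.24, 0.13, 0.08, 0.01 and −0.07, and those of members 0.37, 0.19, −0.06, 0.22 and −0.01. Pearson's r of the change with log2 length was −0.44 over 38 members and −0.21 over 14413 other genes in N2V8_NTG against UT. It was −0.41 and −0.19 in WT_S13, and 0.19 and 0.04 in N2V8_S13. Genes of one library share its depth and composition and are not independent, so no p is given.

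**Figure D5:**
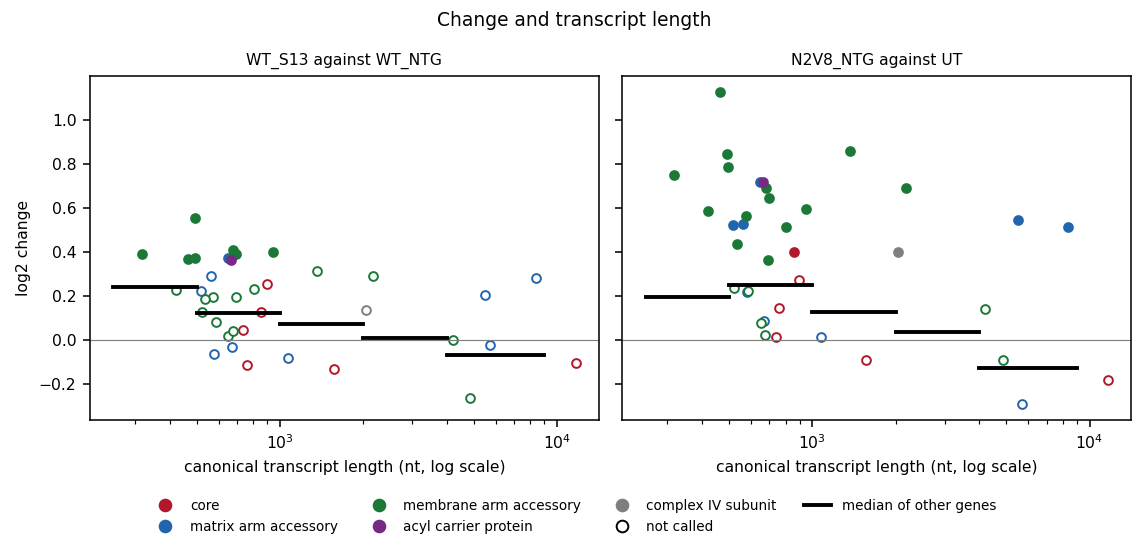
Log2 change (y axis) of 37 of the genes (points, coloured by role, filled where called) against canonical transcript length in nt (x axis, log scale) in WT_S13 against WT_NTG and in N2V8_NTG against UT, with black bars for the median of all other genes in 5 length classes. The bars are lowest for the longest transcripts, at −0.07 and −0.12. No gene drawn was called lower, and the fold required for a call is larger than any bar. Filled points therefore lie above the bars by the rule for a call, which says nothing about the length trend. Most filled points lie under 1000 nt, the range of most genes drawn.

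The share of counts in other genes with transcripts under 1000 nt was 9.10 to 9.25% in N2V8_NTG, 8.29 to 8.47% in N2V7_NTG and 8.29 to 8.45% in WT_NTG, against 8.13 to 9.01% in UT. It was 8.81 to 9.08% in N2V8_S13, 9.10 to 9.34% in N2V7_S13, 8.54 to 9.0% in WT_S13 and 9.45 to 9.76% in ASO2. Reads of ribosomal RNA took 3.98 to 4.96% of counts in N2V8_S13, 4.17 to 4.42% in N2V7_S13 and 1.79 to 2.30% in WT_S13, against 1.81 to 3.52%, 1.76 to 3.07% and 1.71 to 3.15% in the NTG groups of these effectors and 2.78 to 3.76% in UT. The part of either in the members' changes was not tested.

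Removing the length trend from each library, an alternative added after seeing the data, lowered the counts. In N2V8_NTG against UT 14 members were then higher (13.4% of all genes), with NDUFB2, NDUFA9, NDUFB6 and NDUFA5 the furthest, and the median was 0.22. In N2V7_NTG against UT 9 were higher (10.7%). In WT_S13 2 were higher (5.14%), NDUFB3 and NDUFA9, and in N2V7_S13 2 (3.03%), NDUFA9 and NDUFB5, with medians of 0.05 and 0.07. The canonical transcripts of NDUFA9 and NDUFA5 are 8356 and 5496 nt long, and which isoform these cells use was not analysed here. NDUFB8 in WT_S13 had 0.25 (adjusted p = 0.00154), short of the fold required. For N2V8 minus WT 10 were lower (8.40%) and for N2V8 minus N2V7 3 (3.69%). In ASO2 3 were higher (6.09%) and NDUFV1 stayed lower. The shares of all genes called fell far less than the counts of members did.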

How the data were processed

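RNA-seq of HEK293T cells gave 54 libraries in 18 groups of 3, grouped by the labels. The unit of the deposited table is estimated counts, one value per gene and library. The authors quantified reads with Salmon (version 1.5.2, per the submitters' processing notes) and summed transcripts with tximport's length scaling. A TRUE or FALSE mark (unit: other), deposited by the authors beside the counts, gives the genes they kept. Its rule is not given in the sources used here. The libraries were stranded and poly(A)-selected. Counts were rounded. In R (version 4.3.3), filterByExpr of edgeR (version 4.0.16) left 15378 genes. After TMM scaling, all libraries entered a single model with a term for each group and 1 RUVr factor, estimated from residuals, and genes were tested by edgeR's robust quasi-likelihood method. The factor took 21.8% of the residual variance. N2V7_S4 libraries held 95.6% of its squared weight.

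Genes were called at a log2 change past 0.32 in either direction, as in the study, and an adjusted p under 0.05 (Benjamini-Hochberg within a family of comparisons, across all its genes: S13 against NTG, differences between effectors, NTG against UT, oligonucleotides against UT, additional crRNAs). CPM are TMM-scaled. SE and 95% intervals come from the fit, and p-values measure the spread between these cultures. The SD of 3 libraries limits the precision. Canonical transcript lengths are those of GENCODE, and motifs were searched in RefSeq promoters. The fit was tested on simulated data.

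The members and gene lists were chosen with earlier results of these data known. The values of 1 member, which enters the counts and medians, and of 1 marker are not reported here, and that member is not drawn. All members may be named; values are given for called members with the largest changes, up to 10 in each direction (5 for additional crRNAs), up to 5 of them by library, and for up to 2 genes per other list. Alternatives were limma-trend (version 3.58.1), DESeq2 (version 1.42.0), DESeq2 size factors, no factor, no low-count filter, a replicate block, adjusted p under 0.01, compared libraries alone, and each library left out. Chosen after seeing the data were the transcript-length offsets and the NTG comparisons between effectors.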

Additional observations from a re-analysis of the deposited data

Results flagged for a closer look

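An interaction term of the edgeR fit called some complex I genes as differing between effectors in the effect of crRNA-13. The member counts and the log2 differences were as follows.

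For N2V7 minus WT, 6 members differed, 5 higher and 1 lower, beside 6.26% of all genes called higher and 8.64% called lower. NDUFB3 was lower, at −0.65. NDUFA10 was higher at 0.40, NDUFA6 at 0.39, NDUFV1 at 0.37, NDUFB5 at 0.36 and NDUFS7 at 0.33.

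For N2V8 minus WT, 16 members differed, and all 16 were lower (9.72% of all genes called lower). With the transcript-length offsets 10 were lower (8.40% of all genes). The membrane arm subunits were NDUFB3 at −0.78, NDUFB2 at −0.66, NDUFS5 at −0.56, NDUFB8 at −0.56, NDUFC1 at −0.55, NDUFB1 at −0.53, NDUFB6 at −0.47, NDUFC2 at −0.46, NDUFA3 at −0.43 and NDUFA8 at −0.37. The matrix arm subunits were NDUFA2 at −0.51, NDUFA9 at −0.48, NDUFA12 at −0.44 and NDUFA5 at −0.37. NDUFAB1 was at −0.55 and the core subunit NDUFS3 at −0.36.

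For N2V8 minus N2V7, 13 members differed, and all 13 were lower (5.37% of all genes called lower). With the transcript-length offsets 3 were lower (3.69% of all genes). The membrane arm subunits were NDUFB1 at −0.48, NDUFB5 at −0.47, NDUFB8 at −0.47, NDUFS5 at −0.43, NDUFA11 at −0.43, NDUFB7 at −0.40 and NDUFC1 at −0.38. The matrix arm subunits were NDUFA9 at −0.47, NDUFA6 at −0.41 and NDUFA12 at −0.36. NDUFAB1 was at −0.42, and the core subunits NDUFS3 and NDUFV2 were at −0.46 and −0.34.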

How the results depend on the processing

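Of 164 member calls, 163 were kept by limma-trend, 162 by DESeq2, 142 without the factor, 157 without a low-count filter, 155 at an adjusted p under 0.01, 149 with compared libraries alone and 74 with the transcript-length offsets, and 0 changed direction. The replicate block kept 164 of 164. Replicate numbers did not pair the libraries (mean residual correlation 0.00121 for the same number and −0.000574 for others).

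Without the factor, counts of members called were 8 for N2V8 minus N2V7, 0 for ASO4, 2 for WT_S3 and 0 for N2V8_S4. WT_NTG against UT had 2 with DESeq2, with its size factors, without a low-count filter and with length offsets. N2V8_S4 had 0 without a low-count filter, at an adjusted p under 0.01 and with compared libraries alone, and N2V8_NTG against N2V7_NTG had 1 under each of these, while N2V7_S4 had 0 with compared libraries alone. With length offsets, counts were 2 for WT_S13, 2 for N2V7_S13, 10 for N2V8 minus WT, 3 for N2V8 minus N2V7, 9 for N2V7_NTG and 14 for N2V8_NTG against UT, 4 for ASO2, 0 for ASO4, 1 for WT_S3, 0 for WT_S4, 2 for N2V7_S7 and 3 for N2V8_S7. For N2V7_NTG and N2V8_NTG against WT_NTG they were 2 and 7, and for N2V8_NTG against N2V7_NTG 1. The causes were not tested.

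Leaving out 1 library at a time gave 8 to 10 members for WT_S13, 3 to 8 for N2V7_S13, 0 to 1 for N2V8_S13, 4 to 8 for N2V7 minus WT, 14 to 18 for N2V8 minus WT, 10 to 15 for N2V8 minus N2V7, 1 to 4 for WT_NTG, 12 to 18 for N2V7_NTG and 21 to 23 for N2V8_NTG against UT, 9 to 14 for ASO2 and 1 to 1 for ASO4. It gave 2 to 5 for WT_S3, 1 to 3 for WT_S4, 8 to 12 for WT_S7, 0 to 4 for N2V7_S3, 0 to 17 for N2V7_S4, 4 to 13 for N2V7_S7, 0 to 2 for N2V8_S3, 0 to 2 for N2V8_S4 and 2 to 8 for N2V8_S7. Between NTG groups it gave 2 to 5 for N2V7 and 18 to 21 for N2V8 against WT, and 1 to 5 for N2V8 against N2V7. Of 1194 member calls recomputed in this way, 1088 were kept.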

Other observations

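Over the 18 group means, the genes outside complex I whose log2 CPM followed NDUFB2 most closely were WDR77 (Pearson's r = 0.96), UBL5 (0.96), C20orf27 (0.95), PIMREG (0.95) and PRDX1 (0.95). Among the members it was NDUFA2 (0.95), NDUFAB1 (0.91) and NDUFB6 (0.89), and the lowest were NDUFV3 (−0.69) and NDUFS1 (−0.56). The groups share libraries' depth and composition and several share an effector, so these values are a description.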
